A study of Mus musculus with 8 samples.

Results

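The Bcl2 family of survival and death genes was followed in bulk RNA sequencing of epidermal Langerhans cells, a kind of dendritic cell, through 10 genes listed by name out of 25247 genes in the count table. The list used no measured value, though it was chosen with earlier results of these data known. It holds the survival genes Bcl2, Bcl2l1, Mcl1 and Bcl2l2, the effector genes Bax and Bak1, and the BH3-only genes Bcl2l11, Bbc3, Pmaip1 and Bid. Each of the 10 matched 1 Ensembl identifier, and all 10 passed the filter on low counts in every comparison. The cells were sorted from ear epidermis of C57BL/6 mice as live CD45+ MHCII+ CD24+ EpCAM+ cells lacking Ly6G and CD103, and the series asked how Ezh2, the histone methyltransferase of Polycomb repressive complex 2, acts on the migration of these cells and on allergic contact dermatitis. The mice were wild type (WT) or EZH2 -/- (KO), with 4 libraries each. Treatment, age, the part of Ezh2 deleted, the cells in which it was deleted and whether libraries came from separate animals are not given in the sources used here. P-values therefore rest on how far libraries of a group spread, a spread that may be technical.

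The genotype of 4 of the 8 libraries was open, since each sample carries a library code in its title and another in its description. The codes agreed for RMN030 and RMN031 (WT) and for RMN038 and RMN039 (KO), called the undisputed libraries. RMN032 and RMN033 were KO by title code and WT by description code, and RMN036 and RMN037 were WT by title code and KO by description code. By number the codes form a run of earlier ones (030 to 033) and a run of later ones (036 to 039). Among the undisputed libraries and under the description codes, genotype and code run are the same split and cannot be told apart. Under the title codes each run holds 2 libraries of each genotype.

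Bcl2 family proteins meet at the outer membrane of mitochondria and set whether a stressed cell releases cytochrome c and dies. Bax and Bak1 open the membrane, the survival proteins hold them in check, and the BH3-only proteins, which sense growth factor loss, DNA damage and other stress, bind the survival proteins through a short helix, the BH3 domain, and free or activate the effectors. Dendritic cells that have left the tissue are short-lived, and Bcl2l11 (Bim) and the survival genes are known for setting how long such cells last.

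Most of the members hold the letters of the BH3 core, so its coding bases are shown for 8 members in which it was found. The search took, in the longest annotated coding sequence of each gene, a leucine codon, then 3 codons of any kind, then a codon for glycine or alanine and a codon for aspartate. Each line gives the 27 bases of the coding strand from that leucine codon, 5′ to 3′, from the GENCODE M21 transcripts of GRCm38, with the leucine codon and the glycine (or alanine) and aspartate codons in capitals. Bcl2, Bcl2l1, Bax, Bak1 and Bid lie on the minus strand, at chr1:106712575-106712601, chr2:152829697-152829723, chr7:45465997-45466023, chr17:27022531-27022557 and chr6:120897289-120897315. Mcl1, Bcl2l11 and Bbc3 lie on the plus strand, at chr3:95659436-95659462, chr2:128147150-128147176 and chr7:16313773-16313799. All 8 stretches lie within 1 coding exon.
Bcl2: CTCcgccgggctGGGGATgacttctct
Bcl2l1: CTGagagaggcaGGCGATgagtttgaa
Mcl1: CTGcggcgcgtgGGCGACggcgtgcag
Bax: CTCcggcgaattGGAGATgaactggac
Bak1: CTTgctctcatcGGAGATgatattaac
Bcl2l11: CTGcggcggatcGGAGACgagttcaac
Bbc3: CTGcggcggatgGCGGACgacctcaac
Bid: CTCgcccaaataGGCGATgagatggac
Bbc3 has an alanine codon at the place where the other 7 have a glycine codon. Bcl2l2 had no match to these letters in its longest coding sequence. Pmaip1 had 2 matches, both with glycine, which are not printed here. The core is short: 23.96% of 21547 coding genes hold it with glycine or alanine and 13.36% with glycine, so a match alone describes a gene and does not make it a family member.

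The 8 libraries held 11051402 to 18966195 counts. All 12 Langerhans cell markers, among them Cd207, Epcam and Cd74, were detected in every library, with summed levels of 79543 to 100946 CPM (counts scaled to a library total of 1e+06). Ezh2 stood at 15.7 and 22.4 CPM in RMN030 and RMN031, at 12.7 and 10.5 in RMN038 and RMN039, at 15.2 and 14.9 in RMN032 and RMN033 and at 19.0 and 17.6 in RMN036 and RMN037. By title code every WT library (lowest 15.7) was above every KO library (highest 15.2), a narrow gap. The ranges of WT and KO were free of overlap for 2.94% of all genes under those codes. By description code they overlapped for Ezh2, with WT down to 14.9 and KO up to 19.0 CPM. These counts cover the whole gene and do not test the deletion, and which codes are right was not tested. The libraries stood apart in other transcripts. RMN030 and RMN031 held 293 and 285 CPM of 15 T lineage markers, all 15 of them detected, against 13.4 to 27.1 CPM in the other 6 libraries. The later run held more erythroid transcripts (580 to 1355 against 122 to 226 CPM over 5 markers), more fibroblast transcripts (110 to 176 against 35.6 to 49.1 CPM over 5 markers) and more mitochondrial transcripts (3.76% to 4.03% against 1.02% to 1.87% of counts). Keratinocyte markers were at 13583 to 17647 CPM in the earlier and 14145 to 16267 CPM in the later run.

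The libraries of both genotypes carried far more transcript of Bcl2l1 and Mcl1 than of any other member. What part of these levels came from other cells, such as those behind the keratinocyte markers above, was not tested. On the scale that allows genes to be set side by side, CPM per kilobase (kb) of exon, the order of the medians over the 8 libraries was Bcl2l1 at 75.7, Mcl1 at 55.7, Bax at 16.3 and Pmaip1 at 12.7. Below these came Bcl2l11 at 2.98, Bid at 1.86, Bbc3 at 1.70, Bcl2l2 at 1.5005, Bak1 at 0.572 and Bcl2 at 0.267 CPM per kb. Bcl2l1 (lowest library 68.4) and Mcl1 (highest 78.8) overlapped in their ranges, as did Bax (13.3 to 24.2) and Pmaip1 (7.46 to 19.1). Bcl2l11 (1.82 to 4.53), Bid (1.16 to 2.47), Bbc3 (0.683 to 3.61) and Bcl2l2 (1.15 to 1.99) overlapped with their neighbours, and so did Bak1 (0.398 to 0.723) and Bcl2 (0.233 to 0.588). The order had 3 gaps free of overlap: between Mcl1 (lowest 44.9) and Bax, between Pmaip1 and Bcl2l11, and between Bcl2l2 and Bak1, apart from Bbc3, whose lowest library (0.683) fell within the range of Bak1.

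**Figure D1:**
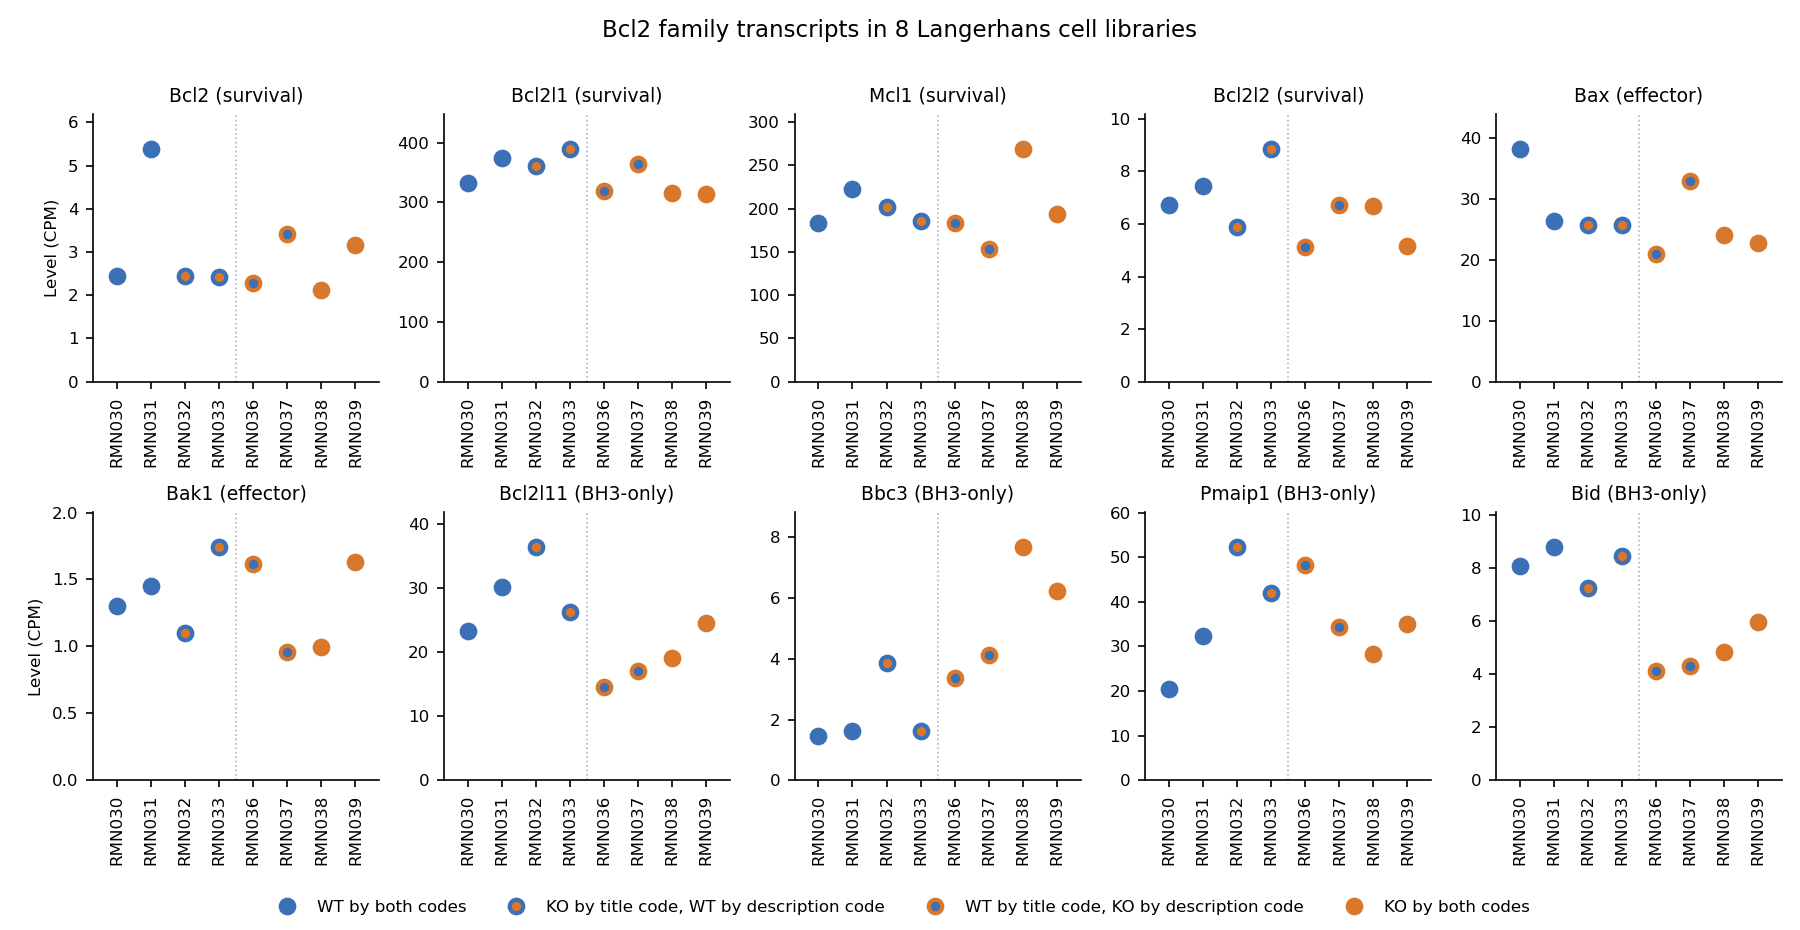
Level in CPM (vertical axes, from 0) of each of the 10 members in each of the 8 libraries (horizontal axes); the outer colour of a point is the genotype by description code and the inner colour that by title code, and the dotted line parts the earlier from the later code run. Bbc3 is highest in RMN038 and RMN039, Bid is lower in all 4 later than in all 4 earlier libraries, and Bcl2 stands out in RMN031.

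Of the survival genes, Bcl2l1 (Bcl-xL, which holds Bax and Bak1 in check at the mitochondrion) was the steadiest of the 10, with a coefficient of variation of 8.54% over the 8 libraries. Its levels in RMN030 to RMN033 were 333, 374, 361 and 390 CPM, and in RMN036 to RMN039 they were 318, 364, 316 and 314 CPM. The 2 undisputed KO libraries were the lowest of all 8, RMN036 came next, and RMN037 lay among the earlier libraries. The log2 fold change of KO over WT in edgeR's quasi-likelihood test, with Benjamini-Hochberg adjustment over all genes tested, was -0.12 (adjusted p = 0.818, SE 0.13) in the undisputed libraries, -0.02 (adjusted p = 0.998, SE 0.09) by title code and -0.11 (adjusted p = 0.649, SE 0.08) by description code.

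Mcl1 encodes a survival protein of short half-life whose level follows its synthesis closely. It was at 184, 223, 203 and 186 CPM in the earlier libraries and at 183, 153, 269 and 194 CPM in the later ones. RMN038 was the highest and RMN037 the lowest of the 8, both in the later run, and WT and KO overlapped under every reading. In edgeR the log2 fold change was 0.23 (adjusted p = 0.694, SE 0.17) in the undisputed libraries, 0.20 (adjusted p = 0.998, SE 0.14) by title code and 0.05 (adjusted p = 0.937, SE 0.15) by description code.

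Bcl2, the founding survival gene, was read from 30 to 100 counts per library. Its levels were 2.44, 5.39, 2.45 and 2.43 CPM in the earlier libraries and 2.29, 3.42, 2.13 and 3.17 CPM in the later ones. RMN031 lay above all the others, and the remaining 7 spanned 2.13 to 3.42 CPM. The summed T lineage markers were at 293 CPM in RMN030 and 285 CPM in RMN031, and their part in the level of Bcl2 was not tested. The log2 fold change was -0.52 (adjusted p = 0.824, SE 0.58) in the undisputed libraries and -0.42 (adjusted p = 0.998, SE 0.38) by title code. By description code it was -0.17 (adjusted p = 0.923, SE 0.39), and 0.23 once RMN030 and RMN031 were left out (adjusted p = 0.959). In 6.09% of its exon bases Bcl2 overlaps an antisense gene, D630008O14Rik, whose reads cannot be told apart where the strand setting is not given.

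Bcl2l2 (Bcl-w), a survival gene close to Bcl2l1 in function, was at 6.72, 7.43, 5.88 and 8.86 CPM in the earlier and 5.11, 6.71, 6.68 and 5.16 CPM in the later libraries. The 2 lowest libraries were in the later and the 2 highest in the earlier run, with overlap between the runs. Its log2 fold change was -0.21 (SE 0.39) in the undisputed libraries, 0.03 (SE 0.25) by title code and -0.25 (SE 0.24) by description code, with adjusted p of 0.911, 0.998 and 0.764 in edgeR. Of its exon bases 13.3% are shared with the same-strand model Gm20521, so part of its reads may have been left uncounted or given to that model.

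Of the effectors, Bax, a pore former that moves from the cytosol to mitochondria, was at 38.2, 26.3, 25.7 and 25.7 CPM in the earlier libraries and at 21.0, 32.9, 24.0 and 22.7 CPM in the later ones. RMN030 and RMN037 were high, and the other 6 lay between 21.0 and 26.3 CPM. Its contrast of KO over WT was a log2 fold change of -0.42 (adjusted p = 0.622, SE 0.26) in the undisputed libraries, -0.28 (adjusted p = 0.998, SE 0.19) by title code and -0.16 (adjusted p = 0.814, SE 0.19) by description code. Its exons share 12.2% of their bases with the model Gm45808.

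Bak1, the effector that sits in the mitochondrial membrane, was read from 14 to 33 counts per library, at 1.30, 1.45, 1.10 and 1.74 CPM in the earlier and 1.61, 0.96, 0.99 and 1.63 CPM in the later libraries. High and low libraries occurred in both runs and both genotypes. Its log2 fold changes were -0.03 (SE 0.82), 0.03 (SE 0.48) and -0.07 (SE 0.49) in the undisputed, title-code and description-code fits, with adjusted p of 0.997, 0.998 and 0.978 in edgeR. In the undisputed and description-code fits these standard errors are the widest of the 10 members, and part of its exons overlaps Ggnbp1 on the opposite strand.

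Among the BH3-only genes, Bbc3 (Puma, a target of p53 and of stress-activated transcription factors) varied most of the 10, with a coefficient of variation of 60.7%. Its levels were 1.45, 1.62, 3.86 and 1.63 CPM in the earlier libraries and 3.36, 4.14, 7.67 and 6.24 CPM in the later ones, from 19 to 108 counts. The 2 undisputed KO libraries were the highest of all 8. RMN032 stood above the other 3 earlier libraries, and RMN033 was at the level of the undisputed WT libraries. In the undisputed libraries Bbc3 was at 1.53 ± 0.12 CPM in WT and 6.96 ± 1.01 CPM in KO (n = 2 each, SD), a log2 fold change of 2.22 (SE 0.49), or 4.66-fold. That value missed the threshold of 0.05 in edgeR (adjusted p = 0.0773). By title code it was at 2.64 ± 1.32 CPM in WT and 4.85 ± 2.66 CPM in KO (n = 4 each, SD), a log2 fold change of 0.87 (adjusted p = 0.998, SE 0.51). By description code it was at 2.14 ± 1.15 CPM in WT and 5.35 ± 1.97 CPM in KO (n = 4 each, SD), a log2 fold change of 1.37 (adjusted p = 0.133, SE 0.41). WT and KO overlapped under both readings of all 8 libraries.

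The side of the threshold on which Bbc3 fell depended on the tool, the filter and the libraries, while the fold change stayed positive in all of them. In the undisputed libraries it passed in DESeq2 (adjusted p = 0.029), without a filter on low counts (adjusted p = 0.00863) and without RMN039 (2.35, adjusted p = 0.0102). Those settings called 2.07%, 1.90% and 2.75% of all genes tested. Over all alternatives of that comparison its log2 fold change ran from 2.06 to 2.35 and its adjusted p from 0.00863 to 0.123. By description code it passed in DESeq2 alone (adjusted p = 0.0458), a setting that called 4.51% of genes, with adjusted p from 0.0458 to 0.523 over all alternatives. Without RMN030 and RMN031 the log2 fold change was 0.37 by title code (adjusted p = 0.980) and 1.03 by description code (adjusted p = 0.523).

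Bcl2l11 (Bim), which binds all survival members and is induced when growth factor signals fade, was at 23.3, 30.3, 36.4 and 26.3 CPM in the earlier libraries and at 14.6, 17.1, 19.0 and 24.6 CPM in the later ones. The 3 lowest libraries were all in the later run, and RMN039 reached above RMN030. The sign of the contrast depended on the codes. The log2 fold change was -0.25 (adjusted p = 0.810, SE 0.27) in the undisputed libraries, 0.31 (adjusted p = 0.998, SE 0.24) by title code and -0.58 (adjusted p = 0.185, SE 0.19) by description code.

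Pmaip1 (Noxa, a BH3-only gene whose protein pairs chiefly with Mcl1) was at 20.4, 32.4, 52.2 and 42.1 CPM in the earlier libraries and at 48.3, 34.4, 28.2 and 35.0 CPM in the later ones. RMN030 was the lowest and RMN032 the highest, both in the earlier run. Pmaip1 had a log2 fold change of 0.31 (adjusted p = 0.756, SE 0.27) in the undisputed libraries, 0.21 (adjusted p = 0.998, SE 0.24) by title code and 0.04 (adjusted p = 0.975, SE 0.24) by description code.

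Bid, which caspase 8 cuts to carry a death receptor signal to mitochondria, was at 8.09, 8.78, 7.23 and 8.44 CPM in the earlier libraries and at 4.10, 4.32, 4.83 and 5.97 CPM in the later ones. Every earlier library was above every later one. By description code this split is WT against KO, 8.14 ± 0.66 against 4.80 ± 0.84 CPM (SD, n = 4 each), with a log2 fold change of -0.72 (adjusted p = 0.179, SE 0.24). It was -0.60 (adjusted p = 0.627, SE 0.38) in the undisputed libraries and 0.06 (adjusted p = 0.998, SE 0.31) by title code. The erythroid, fibroblast and mitochondrial transcripts named above part the libraries the same way, and their part in the level of Bid was not tested. Of the exon bases of Bid, 17.7% overlap its neighbour and relative Bcl2l13 on the opposite strand. In bulk samples such as these, fewer cells with a transcript and less of it per cell cannot be told apart.

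**Figure D2:**
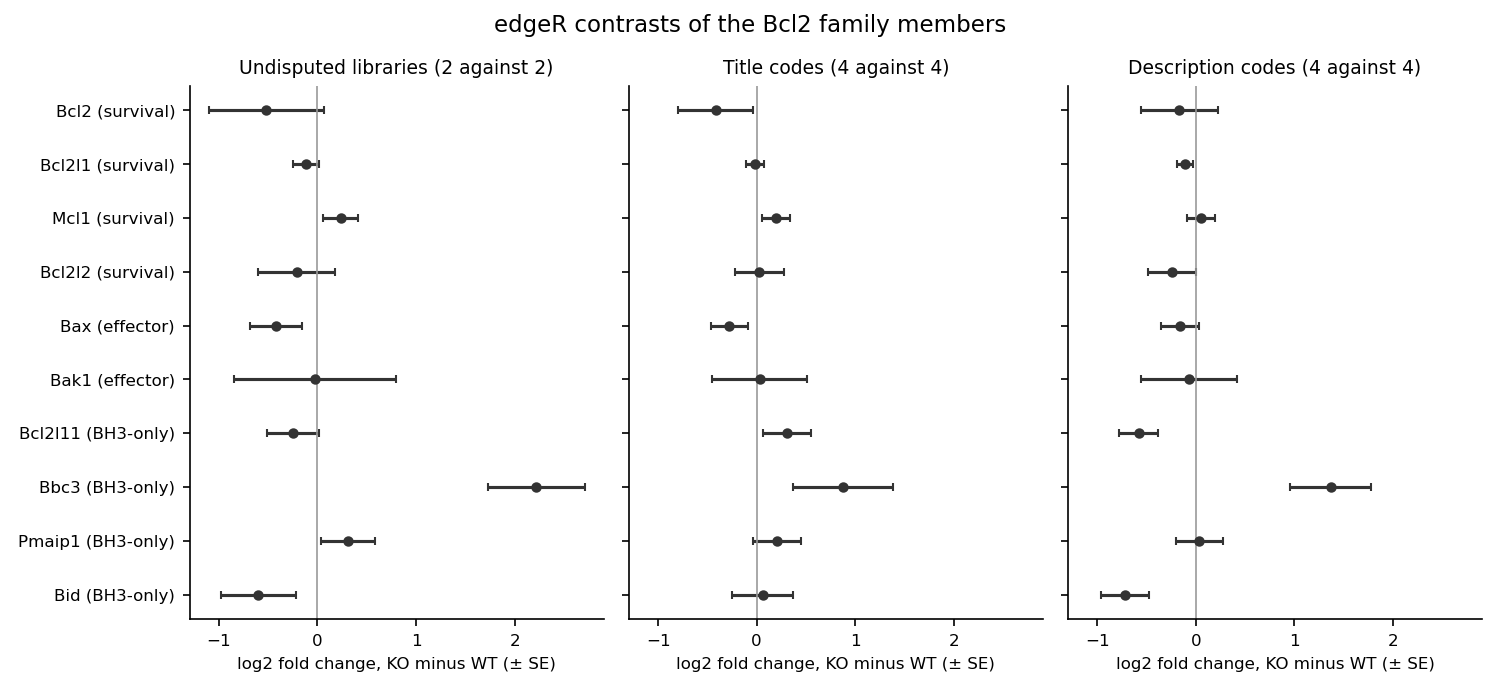
Log2 fold change of KO over WT (horizontal axes) with its standard error for each member (vertical axis) in the 3 edgeR fits: the undisputed libraries (2 against 2), the title codes and the description codes (4 against 4 each). Bbc3 lies right of 0 in all 3 panels (2.22, 0.87 and 1.37), while Bcl2l11 and Bid change side between the title and the description codes.

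No member passed the threshold of an adjusted p of 0.05 in any of the 3 edgeR fits. In the undisputed libraries 0 of 10 passed, where edgeR called 0.794% of all genes (117 of 14727). At an unadjusted p under 0.05 the count was 1 of 10 (Bbc3), near the 11.3% of all genes, DESeq2 called 1 and limma voom 0. Under the title codes 0 of 10 passed, against 0% of all genes (0 of 14630, with 19 called by DESeq2). There 0 of 10 were under 0.05 unadjusted, against 4.59% of all genes (672), and DESeq2 and voom called 0. Under the description codes 0 of 10 passed, against 2.02% of all genes (296 of 14630). There 3 of 10 had an unadjusted p under 0.05 (Bcl2l11, Bbc3 and Bid), against 12.6% of all genes, DESeq2 called 1 and voom 0. The median log2 fold change of the 10 was -0.16 in the undisputed libraries, 0.05 by title code and -0.14 by description code, where that of all genes tested was -0.0016, -0.0033 and -0.0085.

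The ranges of WT and KO were free of overlap for 5 of 10 members in the undisputed libraries (Bcl2l1, Bcl2l2, Bax and Bid lower in KO, Bbc3 higher), near the 42.1% of all genes for which 2 libraries against 2 did so. Under the title codes this held for 0 of 10, against 2.94% of all genes. Under the description codes it held for Bid, 1 of 10, against 8.82% of all genes.

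Because the title codes place both genotypes in both code runs, the contrast could be taken within each run. In the earlier run the WT libraries by title code are RMN030 and RMN031, with 293 and 285 CPM of T lineage markers. The KO libraries RMN032 and RMN033 held 16.5 and 15.8 CPM. Genotype and T lineage transcripts are thus the same split in that run and cannot be told apart there. Bbc3 was the 1 member for which both title-code KO libraries lay above both WT libraries in the earlier and again in the later run; 3.32% of all genes did so, and Bcl2l13 did so among the other family genes. The margin in the earlier run was thin, with RMN033 at 1.63 and RMN031 at 1.62 CPM. The log2 fold change of Bbc3 was 0.79 (adjusted p = 0.818, SE 0.60) in the earlier run and 0.92 (adjusted p = 0.681, SE 0.40) in the later run, and 0.86 (adjusted p = 0.775, SE 0.35) with the run as a covariate. Bcl2l11 was positive in both runs, at 0.19 (SE 0.24) and 0.49 (SE 0.25), with adjusted p of 0.899 and 0.745 in edgeR.

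Pmaip1 and Mcl1 were the members whose difference in contrast between the runs had the smallest p. Pmaip1 had a log2 fold change of 0.80 (adjusted p = 0.386, SE 0.24) in the earlier run, where RMN032 and RMN033 lay above RMN030 and RMN031. The T lineage markers part these libraries too, and their part in this contrast and in the run differences below was not tested. In the later run the log2 fold change of Pmaip1 was -0.36 (adjusted p = 0.796, SE 0.24). The difference itself was -1.16 (SE 0.36, unadjusted p = 0.0081 in edgeR, adjusted p = 0.423). Mcl1 had -0.10 (adjusted p = 0.911, SE 0.14) in the earlier and 0.49 (adjusted p = 0.595, SE 0.16) in the later run, a difference of 0.59 (adjusted p = 0.543, SE 0.23). Bcl2 had a difference of 0.64 with a wider error (adjusted p = 0.905, SE 0.79). Of the 10 members 0 passed edgeR's test of this difference, against 0.0478% of all genes, 2 of 10 had an unadjusted p under 0.05 (Pmaip1 and Mcl1) against 7.89% of all genes, and DESeq2 called 0, against 0.649% of all genes. Without a filter on low counts Pmaip1 passed (adjusted p = 0.0387), a setting that called 0.705% of genes.

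**Figure D3:**
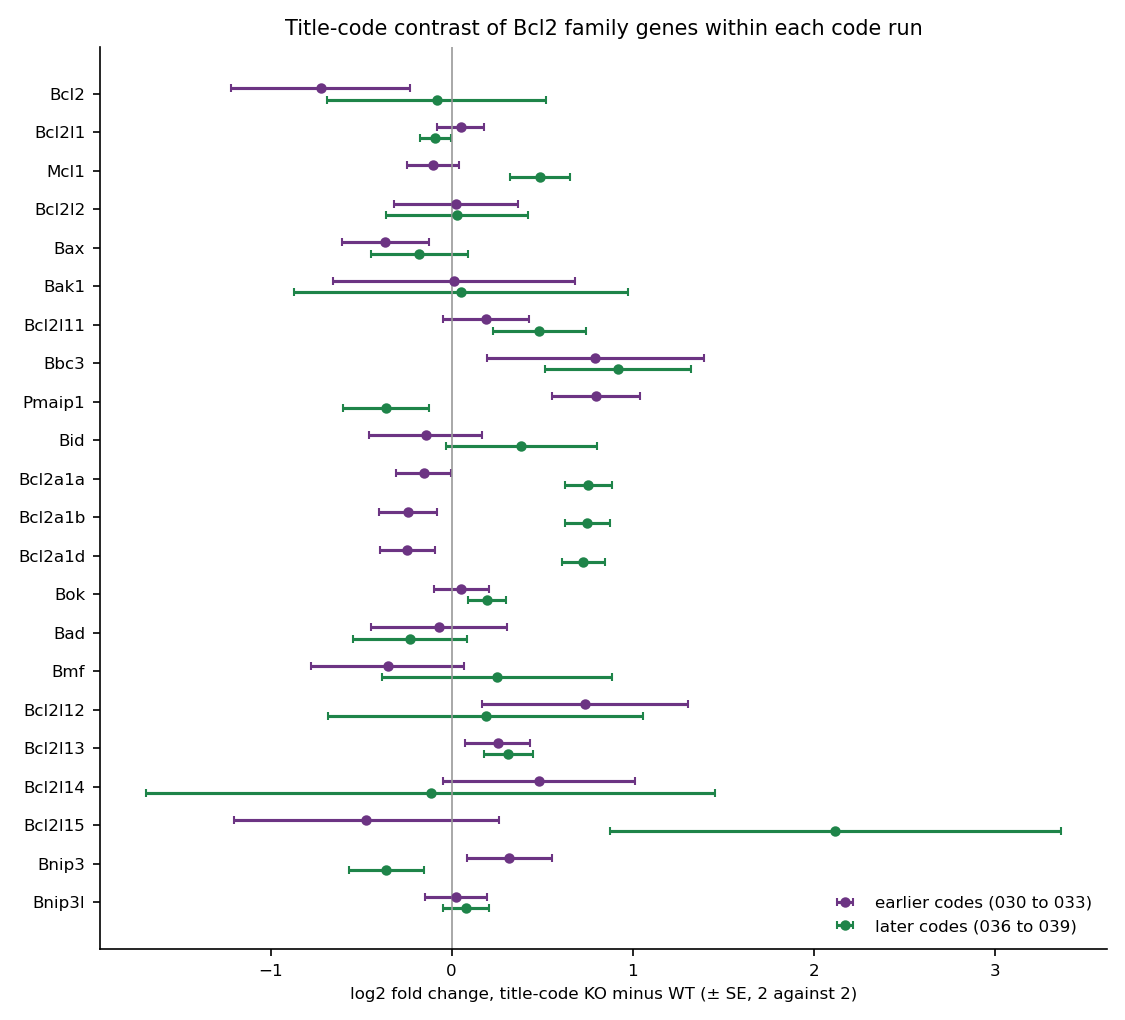
Log2 fold change of title-code KO over WT (horizontal axis) with its standard error for the 10 members and 12 other family genes (vertical axis), in the earlier run (purple) and the later run (green), 2 libraries against 2 each. Bbc3 lies right of 0 in both runs, Pmaip1 and Mcl1 change side, and the 3 Bcl2a1 genes lie left of 0 in the earlier and right of 0 in the later run.

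The balance of survival and BH3-only transcripts was taken per library as the log2 ratio of their summed levels per kb of exon. Survival sums ran from 124 to 149 CPM per kb. Bcl2l1 made up 46.1% to 63.0% of them and Mcl1 35.6% to 52.7%. RMN038 was the library in which Mcl1 exceeded Bcl2l1. BH3-only sums ran from 13.3 to 27.5 CPM per kb, and Pmaip1 made up 56.0% to 79.5% of them. The share of Bbc3 in the BH3-only sum was 5.13%, 4.04%, 6.61% and 3.53% in the earlier libraries and 7.11%, 10.9%, 20.4% and 14.3% in the later ones. The share of Bid went the other way, from 7.41% to 17.1% in the earlier to 5.19% to 8.20% in the later libraries, with overlap.

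The balance itself was 3.27, 2.98, 2.34 and 2.70 in the earlier libraries and 2.48, 2.82, 3.08 and 2.63 in the later ones. The survival members thus exceeded the BH3-only members 5.08- to 9.62-fold, in sums that leave out the abundant Bcl2a1 survival genes. RMN030, with the least Pmaip1, was the highest and RMN032, with the most, the lowest. It was 3.12 ± 0.20 in WT and 2.85 ± 0.32 in KO in the undisputed libraries (SD, n = 2 each). By title code it was 2.89 ± 0.33 and 2.69 ± 0.30, and by description code 2.82 ± 0.39 and 2.75 ± 0.26 (SD, n = 4 each). WT and KO overlapped in all 3, with differences of -0.27, -0.20 and -0.07, each smaller in size than the larger SD of its 2 groups. With the Bcl2a1 genes, Bad, Bik, Bmf and Hrk added, the balance was larger, from 3.86 in RMN036 to 4.89 in RMN030. Its differences were then -0.23 in the undisputed libraries, 0.02 by title code and -0.25 by description code. With CPM not divided by length, the differences were -0.10, -0.19 and 0.09 in the same order. WT and KO overlapped in each of these. With the mean of log2 levels in each class in place of the sum, which gives scarce members such as Bbc3 as much weight as abundant ones, the undisputed libraries differed by -0.57 with no overlap, with WT at 1.44 ± 0.073 and KO at 0.87 ± 0.17 (n = 2 each, SD). On that scale the title-code difference was -0.41 and the description-code difference -0.15, both with overlap.

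**Figure D4:**
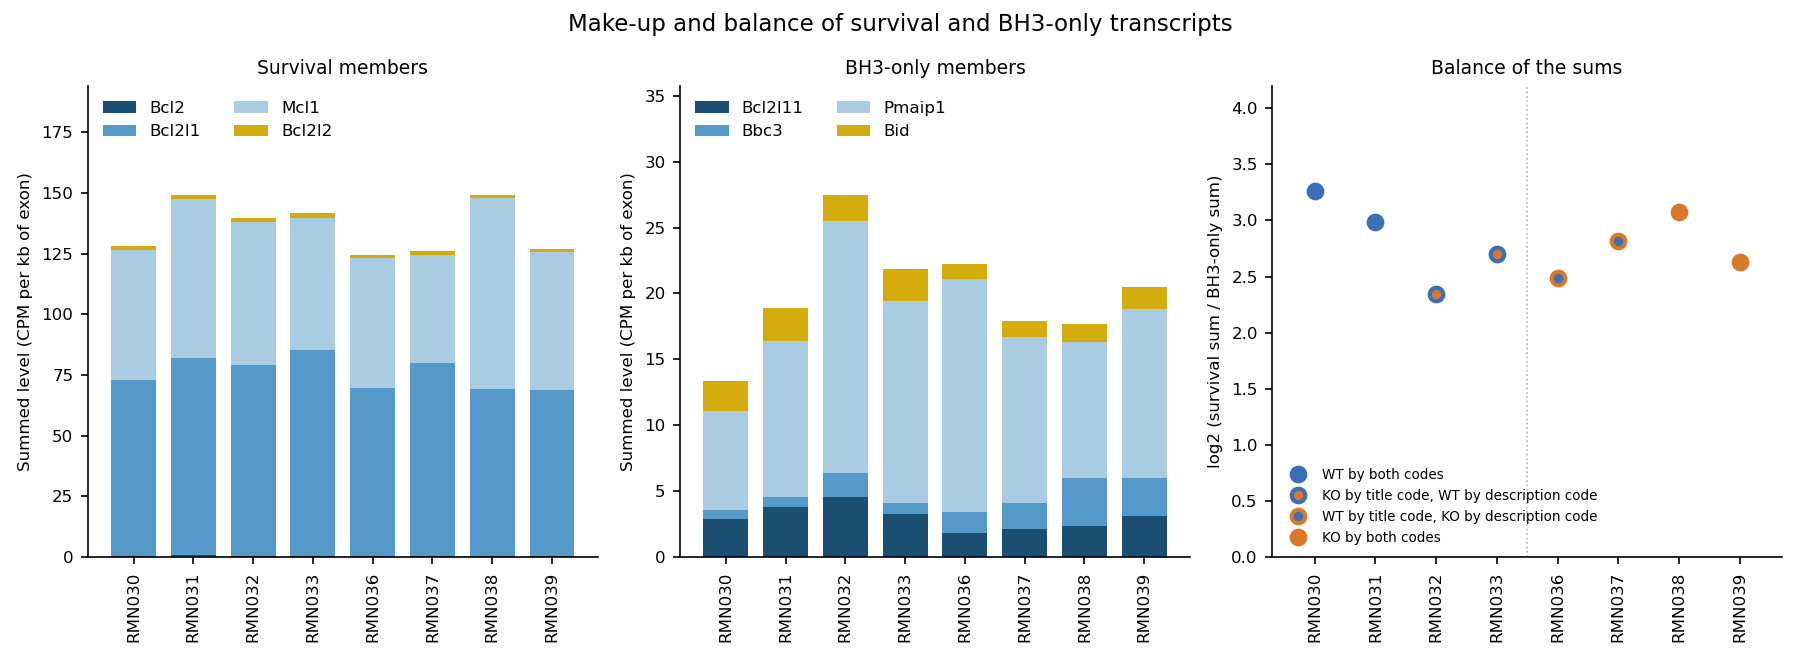
Stacked bars from 0 give the level per kb of exon (CPM per kb) of the survival members (left) and of the BH3-only members (middle) in each of the 8 libraries, and points give the log2 ratio of the sums (right), coloured by genotype as in the plot of levels by library. Bcl2l1 and Mcl1 fill the survival bars, Pmaip1 fills most of the BH3-only bars, and the ratio lies between 2.34 and 3.27 with WT and KO mixed.

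Of 15 other Bcl2 family genes, 14 were in the table and 12 were tested. In edgeR 0 of 12 passed in each of the 3 fits, against 0.794%, 0% and 2.02% of all genes in the undisputed, title-code and description-code fits. At an unadjusted p under 0.05 there were 0 of 12 in each, against 11.3%, 4.59% and 12.6% of all genes. In edgeR's test of the difference between runs 3 of 12, the 3 Bcl2a1 genes, had an unadjusted p under 0.05, against 7.89% of all genes. The Bcl2a1 genes (A1, survival proteins of white blood cells) were the most abundant of the whole family, at summed levels of 260 to 476 CPM per kb. Bcl2a1a, Bcl2a1b and Bcl2a1d are near-identical copies whose reads may match more than 1 of them, which was not tested. They are therefore read as 1 signal, and the split among them is uncertain. Bcl2a1d was at 162, 148, 126 and 143 CPM in the earlier libraries and at 87.0, 82.4, 147 and 128 CPM in the later ones. RMN036 and RMN037 were the lowest of the 8, which the title codes give as WT and the description codes as KO. Its log2 fold change was 0.73 (adjusted p = 0.391, SE 0.12) in the later run and -0.24 (adjusted p = 0.768, SE 0.15) in the earlier run by title code. The difference of 0.98 (SE 0.19) between the runs had an adjusted p of 0.164 in edgeR. Bcl2a1a differed by 0.91 (adjusted p = 0.204, SE 0.20) and Bcl2a1b by 0.99 (adjusted p = 0.165, SE 0.20). All 3 copies passed in DESeq2, with adjusted p of 0.00986 (Bcl2a1a), 0.00313 (Bcl2a1b) and 0.0020 (Bcl2a1d), a setting that called 0.649% of genes. They also passed without a filter on low counts, with adjusted p of 0.0250, 0.0142 and 0.00662.

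Bok, a Bax-like effector gene, was present at 124 to 156 CPM, with a coefficient of variation of 7.44% over the 8 libraries. On the scale per kb its median was 76.8, close to the 75.7 of Bcl2l1. Bcl2l13 ran from 55.0 to 94.6 CPM, with log2 fold changes of 0.28 by title code (adjusted p = 0.998, SE 0.13) and -0.25 by description code (adjusted p = 0.483, SE 0.13). Bnip3l and Bnip3, mitophagy receptors of the family, ran from 74.5 to 100.2 and from 17.7 to 30.8 CPM. The BH3-only genes Bad and Bmf ran from 7.33 to 15.7 and from 3.36 to 15.2 CPM, with Bmf highest in RMN037 and RMN039. Bcl2l12, Bcl2l14 and Bcl2l15 had means of 1.88, 2.10 and 1.30 CPM. Bik and Hrk were at or near 0, with at most 4 and 8 counts in a library.

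Genes that act downstream of the members were read as groups of named genes. Of 17 genes of the apoptosome and the caspases, 17 were tested in the undisputed libraries and 16 in the other fits, and edgeR called 0 in each, with 2, 1 and 2 at an unadjusted p under 0.05 in the undisputed, title-code and description-code fits. The shares of all genes at that unadjusted p, 11.3%, 4.59% and 12.6% in these fits, are the background for this and the following groups. Cycs, the cytochrome c that Bax and Bak1 let out, was at 48.3 ± 8.44 CPM in WT and 70.1 ± 2.54 CPM in KO in the undisputed libraries (n = 2 each, SD), a log2 fold change of 0.58 (adjusted p = 0.270, SE 0.20). Apaf1, which cytochrome c assembles into the apoptosome, was at 22.4 ± 1.40 and 14.0 ± 1.54 CPM, a log2 fold change of -0.63 (adjusted p = 0.425, SE 0.27). Casp6, an executioner caspase, had -0.26 by description code (adjusted p = 0.390, SE 0.12), and Htra2, a mitochondrial protease, -0.32 by title code (adjusted p = 0.998, SE 0.15). The median log2 fold change of the group was -0.28, -0.08 and -0.22 in the 3 fits.

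Of 12 tested caspase inhibitors and death receptor genes, edgeR called 0 in the undisputed and title-code fits. In those fits 2 and 0 had an unadjusted p under 0.05. By description code edgeR called Ripk1 higher in KO and none lower, against 2.02% of all genes. There 2 had an unadjusted p under 0.05, against 12.6% of all genes. Ripk1, the kinase that turns tumour necrosis factor signals towards survival or death, was at 44.7, 59.7, 41.7 and 33.6 CPM in the earlier and 74.4, 61.6, 68.5 and 77.8 CPM in the later libraries. Every later library was above every earlier one, with a log2 fold change of 0.69 by description code (adjusted p = 0.0468, SE 0.16) and -0.11 by title code (adjusted p = 0.998, SE 0.26). Fas, a death receptor gene, had 0.49 by description code (adjusted p = 0.255, SE 0.19). Tnfrsf1a and Tnfrsf10b, receptors of tumour necrosis factor and of Trail, had -0.18 (adjusted p = 0.416, SE 0.09) and -0.56 (adjusted p = 0.449, SE 0.28) under the same codes.

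Of 13 p53 pathway genes, edgeR called 0 in the undisputed and title-code fits, where 3 and 1 had an unadjusted p under 0.05. By description code edgeR called 1 higher and 2 lower in KO, against 2.02% of all genes. There 3 had an unadjusted p under 0.05, against 12.6% of all genes. Sesn2, a stress-induced sestrin, rose from 113 ± 7.24 to 164 ± 15.1 CPM (n = 4 each, SD), a log2 fold change of 0.57 (adjusted p = 0.0077, SE 0.10). Its relative Sesn1 fell from 28.8 ± 4.43 to 14.6 ± 4.32 CPM, by 0.93 on the log2 scale (adjusted p = 0.0401, SE 0.21). Trp53inp1, a p53 target that promotes apoptosis, fell from 137 ± 45.6 to 63.6 ± 14.5 CPM, by 1.06 on the log2 scale (adjusted p = 0.0208, SE 0.21). By description code WT and KO are the earlier and the later run, so genotype and run cannot be told apart here. The ranges of these 3 genes did not overlap between the runs. By title code the 3 genes had -0.11 (SE 0.19), 0.31 (SE 0.33) and 0.53 (SE 0.38), all with an adjusted p of 0.998 in edgeR. Perp, a p53 target of epithelia, had 0.54 in the undisputed libraries (adjusted p = 0.101, SE 0.13).

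Of 12 tested FoxO and stress regulators of BH3-only genes, edgeR called 0 in each of the 3 fits, with 2, 2 and 5 at an unadjusted p under 0.05 in the undisputed, title-code and description-code fits. Jun, the AP-1 subunit, was at 1281 ± 142 CPM in WT and 975 ± 38.03 CPM in KO by description code (n = 4 each, SD), a log2 fold change of -0.35 (adjusted p = 0.0554, SE 0.09). Egr1, an immediate early gene, was at 321 ± 14.7 CPM in WT and 439 ± 25.0 CPM in KO by title code (SD, n = 4 each) with no overlap, a log2 fold change of 0.44 (adjusted p = 0.362, SE 0.08). Trib3, a gene of the integrated stress response, ran from 1.13 CPM in RMN031 to 10.1 CPM in RMN039, with 2.07 in the undisputed libraries (adjusted p = 0.194, SE 0.60). Xbp1, a regulator of the unfolded protein response, had 0.28 by description code (adjusted p = 0.204, SE 0.10).

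Of 14 genes for turnover and binding of Mcl1 and Bim protein, 13 or 14 were tested, and edgeR called 0 in each of the 3 fits, with 2, 0 and 3 at an unadjusted p under 0.05. By description code Bag3, a co-chaperone, had a log2 fold change of 0.35 (adjusted p = 0.147, SE 0.11). Gsk3b, a kinase gene whose product phosphorylates Mcl1, had 0.40 (adjusted p = 0.201, SE 0.14). Dynll2, a dynein light chain gene, had -1.11 (adjusted p = 0.398, SE 0.51).

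For Bcl2, Mcl1 and Bcl2l11 the genes of most similar pattern over the 8 libraries were sought among 7849 genes with a mean of at least 10 CPM, by the root mean square difference of log2 CPM after each gene was centred on its mean. For Bcl2 they were Plk4 (0.18), Krt6b (0.20) and Sp100 (0.20), where the pattern of Bcl2 itself departed from its mean by 0.39. For Mcl1 they were Txlng (0.08), Tspan2 (0.09) and Rbpj (0.10), against 0.23 for its own departure. For Bcl2l11 they were Arhgef28 (0.14), Lzts2 (0.16) and Trim25 (0.16), against 0.39. All of these values come from the same 8 libraries and share their depth and their code runs.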

How the data were processed

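Raw read counts per gene were deposited by the authors for 8 libraries, with 0 columns unused here. Per the submitters' processing notes, STAR 2.5.2b, featureCounts 1.5.0 and GRCm38 (mm10) were used. Annotation release, strand setting and treatment of read pairs are not given in the sources used here. Of counts from 1 to 20, 60.1% were even, as when both mates of a pair are counted, which was not tested. If both mates were counted, counting error taken from the counts alone is understated. Every pair of libraries differed by more than sampling noise, with a chi-square per gene of at least 12.3.

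Symbols matched 25080 of 25247 identifiers. Members, gene lists and tests were chosen with earlier results of these data known. Exon lengths came from GENCODE M21. Tests used edgeR 4.0.16 in R 4.3.3 on counts: filterByExpr, TMM, robust quasi-likelihood F-tests, two-sided, Benjamini-Hochberg adjustment, threshold 0.05; standard errors follow from the F statistic. The step was run on simulated counts with a fixed spread, no code-run effect and changes only in well-counted genes. That run does not show how the step behaves on scarce members or on libraries that differ by run. Alternatives were DESeq2 1.42.0, limma 3.58.1 voom, RLE size factors, other filters, left-out libraries, a replicate block and the code run. Named genes were the members, up to 4 per list with the smallest p in the 3 fits, other family genes with a mean of at least 1 CPM, and the 3 genes most like Bcl2, Mcl1 and Bcl2l11. A gene that this rule names is not reported here.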

Additional observations from a re-analysis of the deposited data

Results flagged for a closer look

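Among 92 groups of 4 libraries examined over the family genes and both readings of the codes, 7 held a library whose gap to its nearest neighbour was large against the range of the group. Chance flags about 1 in 20 such groups, which is 4.6 here. Under the description codes, Bcl2 was at 5.39 CPM in RMN031 where the other WT libraries were at 2.43 to 2.45, and Bax was at 38.2 CPM in RMN030 where they were at 25.7 to 26.3. Bbc3 was at 3.86 CPM in RMN032 where the other WT libraries by description code were at 1.45 to 1.63. Bcl2l14 was at 3.64 CPM in RMN033 against 1.91 to 2.05 under the same codes. Bcl2l1 was at 364 CPM in RMN037 where the other description-code KO libraries were at 314 to 318. RMN032 was low in Bcl2a1 copies within its groups only. Bcl2a1a had 106 CPM there and 125 to 126 in the remaining description-code WT libraries. Bcl2a1b had 86.2 CPM there and 103 to 104 in the remaining title-code KO libraries. RMN036 and RMN037, which are in neither group, were lower, at 74.2 and 69.8 CPM for Bcl2a1a and 60.4 and 65.0 CPM for Bcl2a1b. RMN032 and RMN033 are KO by title code.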

How the results depend on the processing

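With members counted as called, the undisputed libraries gave 1 (Bbc3) in place of 0 without a filter and in DESeq2, and 0 to 1 with each library left out. The description codes gave 1 (Bbc3) in DESeq2, and the difference between code runs gave 1 (Pmaip1) without a filter; the 3 Bcl2a1 copies, which are no members, passed it both without a filter and in DESeq2. Over all genes, the undisputed libraries gave 117 calls, 440 without a filter, 305 in DESeq2 and 263 to 629 with each library left out, the highest without RMN031. The title codes gave 0 calls, 1 without a filter, 19 in DESeq2 and 57 in the earlier run alone. The description codes gave 296 calls, 660 in DESeq2 and 140 to 219 with each library left out, the lowest without RMN033. The replicate numbers did not pair the libraries (correlations of same-numbered deviations from 0.05 to 0.10 by title and -0.007 to 0.03 by description code, and not every library correlated best with its own number). With the replicate number as a block, the description codes gave 174 calls over all genes and the title codes 0, with 0 members called in either.

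The members whose sign turned had an adjusted p over 0.05 both in the edgeR comparison and under the alternative, and the cause was not tested. Without RMN030 and RMN031, the log2 fold change was 0.0052 for Bcl2l1 and -0.085 for Pmaip1 by title code, and 0.23 for Bcl2, 0.027 for Bax and -0.31 for Pmaip1 by description code. By title code it was 0.051 for Bcl2l1, -0.10 for Mcl1 and -0.14 for Bid in the earlier run alone, and -0.36 for Pmaip1 in the later run alone. In voom Pmaip1 had -0.0098 by description code, and without a filter the run difference of Bcl2l2 was -0.0064. With each library left out, values in the undisputed libraries ran from -0.96 to 0.13 for Bcl2, -0.021 to 0.44 for Mcl1 and -0.43 to 0.29 for Bak1. By title code they ran from -0.073 to 0.013 for Bcl2l1, -0.13 to 0.12 for Bcl2l2, -0.10 to 0.15 for Bak1 and -0.098 to 0.24 for Bid. By description code they ran from -0.29 to 0.21 for Bcl2, -0.13 to 0.16 for Mcl1, -0.32 to 0.015 for Bax, -0.20 to 0.055 for Bak1 and -0.15 to 0.24 for Pmaip1. Of 440 results of single members under alternatives, 36 turned sign, 5 newly passed the threshold and 399 did neither. Leaving out a library of the undisputed comparison leaves a lone library, which is assumed to vary like the other group. Depth limits Bak1, Bcl2 and Bbc3 most, with 14, 30 and 19 counts in their lowest libraries.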
